A study of Mus musculus with 18 samples.

Results

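Mouse chromosome 19 is the shortest autosome, 61.43 Mb long in the mm10 build, or 2.494% of the autosomal length. Its meiotic break sites were taken as every chromosome 19 hotspot of 9 DMC1 ChIP-seq maps, 4891 of 165207 autosomal hotspots, and every chromosome 19 bin of 5 H3K4me3 tables, 2723 of 88578 autosomal bins. Each bin is 1 kb wide and centred on a hotspot of the same genotype. The number of hotspots per map ran from 433 to 821. The chromosome carried 719 protein-coding genes, 11.70 per Mb against 8.365 per Mb on the other 18 autosomes, rank 3 of 19.

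Meiotic recombination starts with programmed DNA double-strand breaks. In mice their places are chosen by PRDM9, a zinc-finger protein that binds particular DNA sequences and adds H3K4me3 to nearby nucleosomes, and breaks form there and are coated by the strand-exchange protein DMC1. Different Prdm9 alleles encode different zinc fingers and so use different hotspots. In males of some crosses between the PWD and B6 strains, PRDM9 binds many sites on one homolog better than on the other, homologs pair poorly and the sons are sterile. Short chromosomes form fewer breaks than long ones.

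All samples were whole testes of males. The infertile F1 map came from (PWDxB6)F1 males with the PWD and B6 Prdm9 alleles. The reciprocal F1 map came from (B6xPWD)F1 males with the B6 and PWD alleles, which the deposited header calls semi-fertile. In the rescue F1 map, (PWDxB6)F1 males carried the PWD allele and the humanized allele, here Hum, in which mouse zinc fingers are replaced by those of a human PRDM9. Males of the Hum/PWD F1 map were (B6xPWD)F1 with the Humanized and PWD alleles. The B6xCAST F1 map had B6 and CAST alleles. The remaining maps came from B6/Hum and Hum/Hum males on the C57BL/6J background, PWD/PWD males of the PWD/PhJ strain and B6/B6 males. Each DMC1 map is 1 library without a replicate, from males of about 10 weeks except the B6/B6 map, which was made from reads that other submitters had produced and has no age here. The H3K4me3 tables covered infertile, reciprocal and rescue F1 males with 2 biological replicates and 1 input each, and Hum/Hum and B6/B6 males with 2 pseudoreplicates of 1 library. Infertile and rescue F1 males for H3K4me3 were littermates, and the B6/B6 table used the Hum/Hum input. Usable depth was 40 to 50 M read pairs per F1 replicate and 70 to 80 M per library of the other genotypes.

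The heat of a hotspot is the authors' relative DMC1 signal, so heats are compared within a map, and heats of one site in several maps are given side by side only. The B6 share is the fraction of informative signal from the B6 homolog, and a hotspot with a share from 0.1 to 0.9 is called symmetric here. Heat and the B6 share of a hotspot describe DMC1 signal, and the number of breaks was not measured. Intervals are 95% intervals that cover counting error only; they treat hotspots as independent, which neighbouring sites need not be. Ranks place chromosome 19 among the 19 autosomes, with 1 as the highest, and describe these libraries only.

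The gene Sorcs3, which encodes a sorting receptor of the VPS10 family, is an example of a gene with different sites for different alleles. Its introns held a hotspot among the 5 hottest of chromosome 19 in each of the 3 homozygous maps, at 3 different places. The PWD/PWD site lay 179094 bp beyond the Hum/Hum site, and the B6/B6 site a further 134297 bp on. The sequences are shown because they lie in 1 gene and are each used by a different allele. The gene was singled out after its values were seen and was not compared with others, nor was its length taken into account. The sequences are plus-strand windows of 121 bases around the hotspot centres in GRCm38, the build equal to mm10, from RefSeq.
Hum/Hum site in Sorcs3, chr19:48259454-48259574: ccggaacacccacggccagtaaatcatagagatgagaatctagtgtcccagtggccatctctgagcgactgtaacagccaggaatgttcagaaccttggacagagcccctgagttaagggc
PWD/PWD site in Sorcs3, chr19:48438548-48438668: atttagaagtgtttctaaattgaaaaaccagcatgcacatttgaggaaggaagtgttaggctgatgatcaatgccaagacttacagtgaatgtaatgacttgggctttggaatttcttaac
B6/B6 site in Sorcs3, chr19:48572845-48572965: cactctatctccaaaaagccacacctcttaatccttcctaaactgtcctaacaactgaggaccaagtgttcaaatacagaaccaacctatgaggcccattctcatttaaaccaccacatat

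The Hum/Hum site had a heat of 475.5 in rescue F1, 520.4 in Hum/PWD F1 and 628.8 in B6/Hum males, against 477 in Hum/Hum males, and no hotspot was called within 1000 bp in the other maps. The PWD/PWD site had 167.6 in infertile F1, 168.3 in reciprocal F1, 58.2 in rescue F1 and 80.4 in Hum/PWD F1 males, against 387.3 in PWD/PWD males. The B6/B6 site had 83 in infertile F1, 80.2 in reciprocal F1 and 31.5 in B6/Hum males, against 338.2 in B6/B6 males. All maps with a call at one of these sites thus came from males with the matching allele, although the B6/B6 site was not called in B6xCAST F1 males. On the homologs the sites differed. The Hum site had a B6 share of 0.992 in rescue F1 and 0.994 in Hum/PWD F1 males, the PWD site one of 0.438 in infertile F1 and 0.441 in reciprocal F1 males, and the B6 site one of 0.420 and 0.419 in the same 2 crosses.

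Windows of 201 bases at the hottest chromosome 19 hotspot of each homozygous map, and at the hottest hotspot with a B6 share outside 0.1 to 0.9 in the infertile F1 map, are shown as the DNA behind the strongest signals.
Hum/Hum, intergenic, 46857 bp from Add3, chr19:53093486-53093686: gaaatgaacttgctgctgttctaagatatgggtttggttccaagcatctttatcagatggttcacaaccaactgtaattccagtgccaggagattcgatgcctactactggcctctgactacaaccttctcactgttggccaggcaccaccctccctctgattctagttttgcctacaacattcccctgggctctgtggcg
PWD/PWD, intron of 9930021J03Rik, chr19:29727856-29728056: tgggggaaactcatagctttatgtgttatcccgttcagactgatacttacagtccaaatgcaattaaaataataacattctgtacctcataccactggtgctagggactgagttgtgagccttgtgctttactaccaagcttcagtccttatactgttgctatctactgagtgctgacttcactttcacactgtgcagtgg
B6/B6, intron of Pcgf5, chr19:36428320-36428520: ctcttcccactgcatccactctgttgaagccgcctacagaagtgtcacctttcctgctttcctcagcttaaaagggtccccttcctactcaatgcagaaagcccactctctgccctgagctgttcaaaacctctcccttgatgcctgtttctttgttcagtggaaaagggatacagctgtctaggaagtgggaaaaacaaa
Infertile F1, intron of Sorcs1, chr19:50170169-50170369: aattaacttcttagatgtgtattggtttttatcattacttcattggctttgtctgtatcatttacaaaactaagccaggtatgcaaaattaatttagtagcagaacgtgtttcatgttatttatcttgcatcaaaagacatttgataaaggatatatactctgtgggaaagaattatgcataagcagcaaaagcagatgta

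The 13-base motif found at human PRDM9 hotspots was searched on both strands within 150 bp of every hotspot centre. Of the Hum/Hum hotspots on chromosome 19, 73 of 433, or 16.86%, held it, against 13.98% on the other autosomes, and in the B6/Hum map 13.70% against 11.69%. Chromosome 19 ranked first in both maps, but the intervals of the differences, -0.40 to 6.74 and -0.95 to 5.58 percentage points, include 0. At windows 20000 bp away from the Hum/Hum centres the share was 2.77% on chromosome 19 and 2.82% elsewhere. In the other maps with a Hum allele it was 8.55% against 9.95% in rescue F1 (interval of the difference -3.612 to 1.455), sixteenth of 19. It was 10.34% against 9.95% in Hum/PWD F1 males (-1.81 to 3.07), eighth. In B6xCAST F1 males, which lack that allele, it was 2.26% against 1.52% (-0.27 to 2.49), also first. These intervals include 0. At chromosome 19 windows 20000 bp away in the B6xCAST F1 map the share was 2.875%, above that at the hotspots. Among PWD/PWD and B6/B6 hotspots of chromosome 19 the motif share was 1.44% and 1.84%. The matches at the 3 hottest Hum/Hum hotspots of chromosome 19 that hold it are in capitals below, on the plus strand. The first match is on the plus strand and the other two on the minus strand.
Fam160b1 intron, heat 482.1, chr19:57383297-57383357: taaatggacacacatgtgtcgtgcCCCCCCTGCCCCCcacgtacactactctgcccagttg
749 bp from Kank1, heat 393.9, chr19:25435131-25435191: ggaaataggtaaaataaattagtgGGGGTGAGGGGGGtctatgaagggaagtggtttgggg
1683 bp from Gm4952, heat 331.6, chr19:12598141-12598201: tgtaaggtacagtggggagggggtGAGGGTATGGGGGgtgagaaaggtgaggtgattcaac
The other windows printed above hold no match.

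Hotspots were packed more densely on chromosome 19 than on any other autosome in the 4 hybrid maps with a PWD parent. The infertile F1 map had 821 hotspots or 13.36 per Mb on chromosome 19, against 9.467 per Mb on the other autosomes. The reciprocal F1 map had 542 or 8.823 per Mb against 7.069, the rescue F1 map 491 or 7.993 per Mb against 6.050, and the Hum/PWD F1 map 619 or 10.08 per Mb against 8.330. In the infertile F1 map, chromosome 19 took 3.486% of the hotspots (exact binomial interval 3.26 to 3.73%), 1.412 times the density elsewhere. The next densest autosome of that map was chromosome 18, at 11.86 per Mb. In the reciprocal F1 map it was chromosome 18 at 8.732 per Mb, close to chromosome 19. It was chromosome 11 in the rescue F1 map, at 6.938 per Mb, and in the Hum/PWD F1 map, at 9.69 per Mb. The weakest hotspot called on chromosome 19 had a heat of 4 in the infertile F1 map and 13.8 in the rescue F1 map, so the maps differ in how far down they reach.

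The other maps showed smaller differences. PWD/PWD males had 624 hotspots or 10.16 per Mb on chromosome 19 against 8.528 elsewhere, second of 19, and Hum/Hum males 433 or 7.048 per Mb against 6.281, also second. The share of hotspots lay above the share of length, with an interval that leaves out 2.494%, in these maps and in the 4 PWD hybrids. In B6xCAST F1 males (487 hotspots, 2.599%), B6/Hum males (438, 2.710%) and B6/B6 males (436, 2.569%) the interval included 2.494%. With sequenced bases in place of the full length, the B6/Hum excess was 0.28 points and its interval, 0.036 to 0.543, left out 0. In the B6/B6 map chromosome 19 ranked eighth. Short autosomes were denser in most maps: across the 19 autosomes Spearman's rho of density with length was -0.56 in the infertile F1 map and -0.48 without chromosome 19, a description over chromosomes of the same library. In the PWD/PWD map it was -0.12, and 0.024 without chromosome 19. The median gap between neighbouring hotspots of chromosome 19 was 43436 bp in infertile F1 males, against 60067 bp on the other autosomes.

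Along the chromosome, the densest stretch in the infertile F1 map was 40 to 50 Mb, with 180 hotspots or 18 per Mb and 22.31% of the heat of the chromosome. The same stretch had 13 hotspots per Mb in rescue F1, 15.3 in Hum/PWD F1, 10.2 in Hum/Hum and 11.4 in PWD/PWD males. In B6/B6 males it had 6.8 per Mb.

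**Figure D1:**
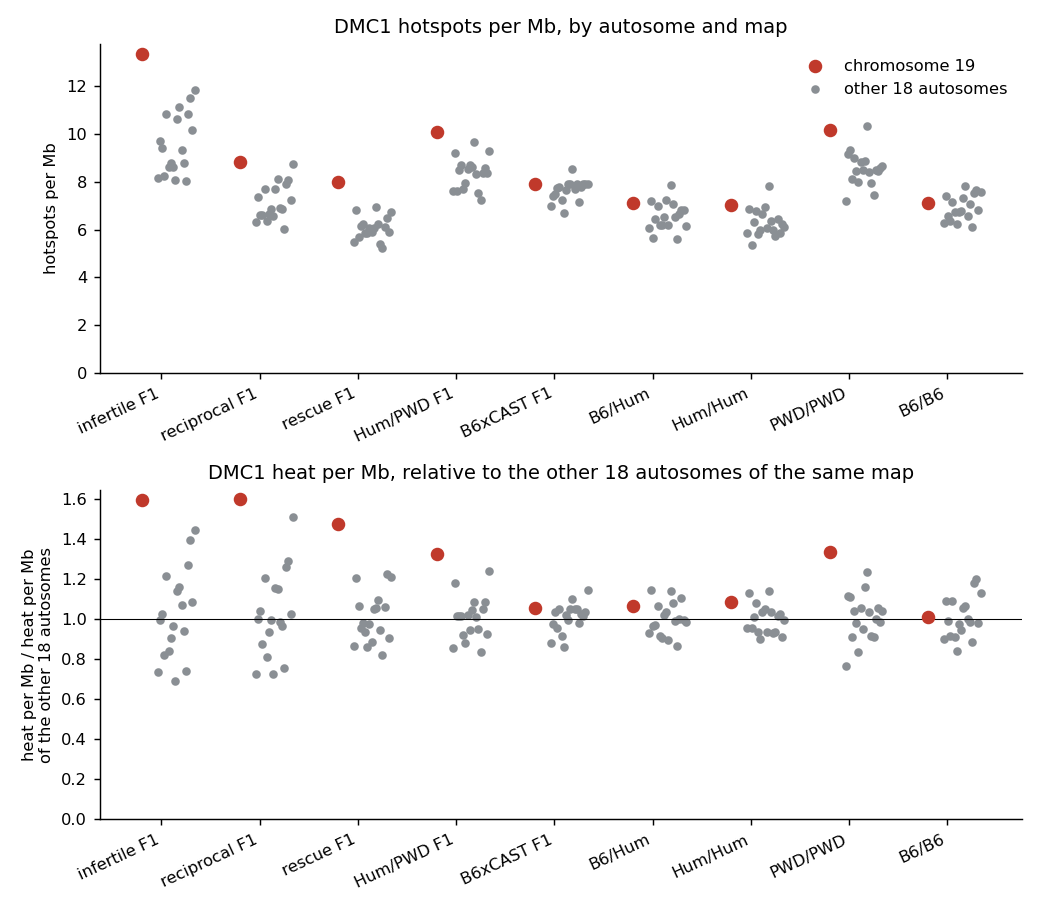
Hotspots per Mb (top) and DMC1 heat per Mb divided by that of the other 18 autosomes of the same map (bottom), for chromosome 19 (red, left) and each other autosome (grey, right, in chromosome order). Chromosome 19 stands above all others in the 4 hybrid maps with a PWD parent in both panels, and at 13.36 hotspots per Mb in the infertile F1 map.

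More heat also fell on each Mb of chromosome 19. Its heat per Mb over that of the other autosomes was 1.594 in infertile F1, 1.600 in reciprocal F1, 1.474 in rescue F1, 1.324 in Hum/PWD F1 and 1.334 in PWD/PWD males, the highest of 19 in each of these maps. It was 1.056 in B6xCAST F1, 1.068 in B6/Hum, 1.085 in Hum/Hum and 1.013 in B6/B6 males. The typical hotspot was not hotter everywhere. The median heat of infertile F1 males was 21.9 on chromosome 19 and 25.5 elsewhere, the lowest of 19, while in PWD/PWD males it was 41.95 against 37, the highest. The hottest 10% of chromosome 19 hotspots carried 50.06% of its heat in the infertile F1 map, against 43.93% on the other autosomes. Chromosome 19 hotspots fell in the hottest 25% of the map more often than others in reciprocal F1 males, 28.97% against 24.87% (difference 4.10 points, interval 0.38 to 8.11), and rescue F1 males, 29.12% against 24.90% (4.23 points, 0.32 to 8.45). In the other 7 maps the interval of this difference included 0. These calls moved with the limit. For the hottest 10% the interval included 0 in rescue F1 males (2.29 points, -0.36 to 5.52) and left it out in PWD/PWD males (2.91 points, 0.47 to 5.79). Among the hottest 15019 hotspots of each map, the length of the shortest one, the infertile F1 difference was 4.23 points (0.32 to 8.47) and the PWD/PWD one 5.03 points (0.95 to 9.45). Of the 100 hottest autosomal hotspots, 15 lay on chromosome 19 in infertile F1 and 15 in reciprocal F1 males, against 2 in rescue F1, 6 in Hum/PWD F1, 3 in B6xCAST F1, 5 in B6/Hum, 2 in Hum/Hum, 2 in PWD/PWD and 0 in B6/B6 males. Chromosome 19 held 3.49% of all autosomal hotspots in infertile F1, 3.09% in reciprocal F1 and 2.57 to 3.27% in the other maps, so counts of 2 and 3 lie near its share.

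Hotspots at promoters were a larger share on chromosome 19 in 2 maps. Of the infertile F1 hotspots on chromosome 19, 146 of 821, or 17.78%, lay within 1000 bp of a protein-coding transcription start, against 10.07% on the other autosomes (difference 7.71 points, 5.21 to 10.5), the highest of 19. PWD/PWD males had 7.53% against 5.42% (2.12 points, 0.27 to 4.48). In the other 7 maps the share was 1.37 to 2.77% on chromosome 19, with intervals of the difference that include 0. Without these hotspots the infertile F1 map still gave chromosome 19 a share of hotspots 0.70 points above its share of length, against 0.99 points with them. This alternative was chosen after seeing the data.

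The shares of hotspots assigned to each allele differed between chromosome 19 and the other autosomes in several maps. Each is a share of the hotspots called, so it falls when another class rises. Total density was higher on chromosome 19 in the infertile F1 map, 13.36 per Mb against 9.467. A smaller share there need not mean fewer hotspots per Mb. A hybrid hotspot was assigned to an allele when a homozygous map had a hotspot within 1000 bp and the other one had none. B6/B6 hotspots were a smaller share on chromosome 19. In B6/Hum males, B6/B6-only hotspots were 79 of 438, 18.04%, against 26.70% on the other autosomes (difference -8.66 points, -12.1 to -4.73), and Hum/Hum-only hotspots 342, 78.08% against 68.89% (9.19 points, 5.02 to 12.9). Hum/Hum-only hotspots carried 86.2% of the heat of chromosome 19 in these males, against 77.3% elsewhere. In infertile F1 males 21.92% of chromosome 19 hotspots were B6/B6-only, against 28.44% (-6.51 points, -9.27 to -3.50), and in reciprocal F1 males 28.78% against 33.10% (-4.32 points, -8.04 to -0.30). The reciprocal F1 difference was lost with the authors' own allele column, which gave 39.85% B6 on chromosome 19 against 40.79% (-0.94 points, -5.04 to 3.30), while in infertile F1 males that column gave 31.30% against 34.81% (-3.51 points, -6.65 to -0.19). In B6xCAST F1 males 13.14% matched the B6/B6 map, against 18.05% (-4.91 points, -7.68 to -1.57). By matching within 1000 bp, chromosome 19 had in all 4 maps the lowest such share of the 19 autosomes. These shares use 1 common B6/B6 map, so they are not independent of each other.

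PWD/PWD-only hotspots were also a smaller share on chromosome 19 where the partner allele was Hum. They made up 19.35% against 24.68% in rescue F1 (-5.34 points, -8.66 to -1.54) and 23.75% against 28.52% in Hum/PWD F1 males (-4.77 points, -8.02 to -1.21). In infertile F1 males they were 36.54% against 40.56% (-4.02 points, -7.31 to -0.61), but among the hottest 15019 hotspots of that map the difference was -0.30 points (-4.66 to 4.20). Reciprocal F1 males had 38.93% against 40.04% (-1.11 points, -5.19 to 3.13), thirteenth of 19, and 0.76 points with the authors' allele column (-3.48 to 5.04). The Hum/Hum-only share was close to that elsewhere in both crosses, 52.34% against 52.44% in rescue F1 (interval of the difference -4.59 to 4.36) and 47.33% against 48.31% in Hum/PWD F1 males (-4.94 to 3.02).

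Hotspots found in neither homozygous map were most frequent on chromosome 19 in the 4 PWD hybrids. They were 39.83% against 29.44% in infertile F1 (10.4 points, 7.04 to 13.8), 30.07% against 25.19% in reciprocal F1 (4.88 points, 1.12 to 8.92), 24.24% against 20.73% in rescue F1 (3.50 points, -0.14 to 7.54) and 25.36% against 21.36% in Hum/PWD F1 males (4.01 points, 0.69 to 7.62). At promoters lay 32.7% of those on chromosome 19 in infertile F1 males, against 21.0% elsewhere, and with promoters left out the difference was 6.74 points (3.26 to 10.4), an alternative chosen after seeing the data. The authors' allele column gave 27.65% undetermined on chromosome 19 against 19.39% in infertile F1 males, and 10.70% against 10.88% in reciprocal F1 males.

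**Figure D2:**
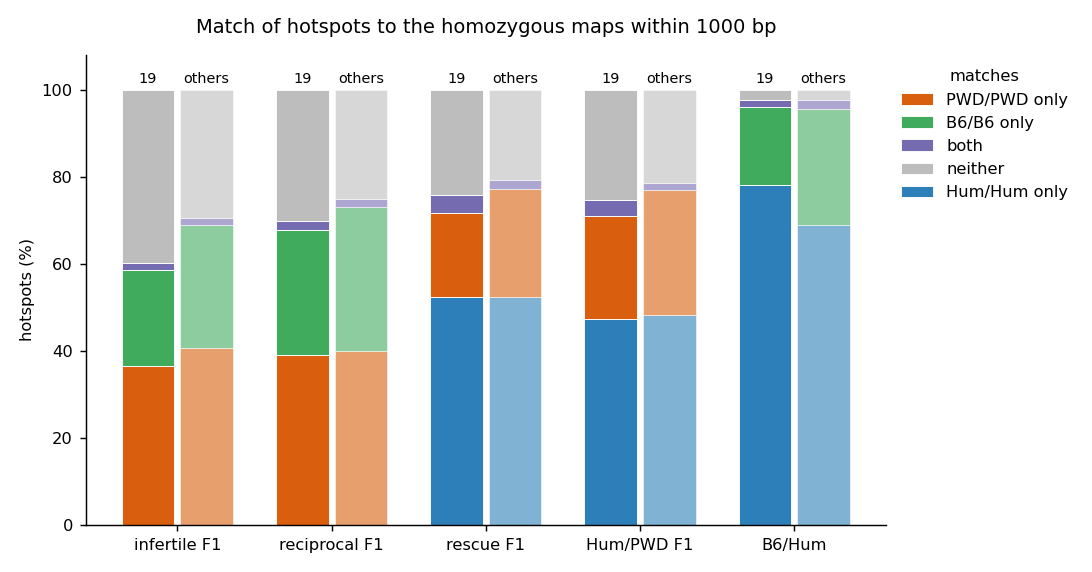
Share of hotspots (%) of each hybrid map that match the homozygous maps within 1000 bp, on chromosome 19 (left bar, full colour) and the other autosomes (right bar, pale). The B6/B6-only part is smaller on chromosome 19 in every map that has it, down to 18.04% in B6/Hum males.

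Read in the other direction, hotspots of the homozygous maps were kept to different degrees. Of the Hum/Hum hotspots on chromosome 19, 63.97% were found in rescue F1 males, against 52.56% elsewhere (11.4 points, 6.72 to 15.9), 72.75% against 66.46% in Hum/PWD F1 (6.29 points, 1.84 to 10.3) and 80.60% against 73.89% in B6/Hum males (6.71 points, 2.66 to 10.2), the highest of 19 each time. B6/B6 hotspots on chromosome 19 were found less often in B6/Hum males, 19.72% against 27.30% (-7.58 points, -11.1 to -3.53), and in B6xCAST F1 males, 14.68% against 19.92% (-5.24 points, -8.31 to -1.56), the lowest of 19 in both. In the crosses of PWD and B6 alleles the difference had the other sign, with intervals that include 0. There B6/B6 hotspots were found at 44.50% against 41.23% in infertile F1 (3.27 points, -1.39 to 8.02) and 38.53% against 35.72% in reciprocal F1 males (2.81 points, -1.70 to 7.52), rank 3 and rank 1 of 19. PWD/PWD hotspots were found at 50.16% against 46.81% in infertile F1 (3.35 points, -0.62 to 7.32), 35.90% against 34.66% in reciprocal F1 (1.24 points, -2.49 to 5.13), 18.43% against 19.07% in rescue F1 (-0.64 points, -3.54 to 2.64) and 27.08% against 29.71% in Hum/PWD F1 males (-2.63 points, -6.03 to 1.04). Over all maps, chromosome 19 hotspots fell into 2170 sites, of which 1024 were in 1 map, 47.19% against 50.16% elsewhere (-2.97 points, -5.10 to -0.84). In 2 maps lay 16.41% against 13.70% (interval of the difference 1.19 to 4.35) and in 3 maps 11.15% against 9.635% (0.24 to 2.93). In 5 maps lay 6.406% against 7.607% (-2.18 to -0.08). In 7 maps lay 11 sites, 0.507% against 0.249% (0.03 to 0.66). In 8 maps lay 2 sites, 0.092% against 0.125%, and in all 9 maps 0 (Wilson interval up to 0.177%), against 40 of 71394 elsewhere, 0.056%. The sites in 8 maps lay in introns of Mark2, a polarity kinase gene, and of Fbxw4.

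Among hotspots with a B6 share, a smaller part of the heat of chromosome 19 lay at symmetric ones. The part of this heat at symmetric hotspots was 28.35% in infertile F1 males, against 34.58% on the other autosomes. In reciprocal F1 males it was 18.93% against 27.60%. In rescue F1 males it was 49.49% against 53.76%, and in Hum/PWD F1 males 45.15% against 52.05%. Each of these was the lowest of 19. In rescue F1 males the lowest other autosome was at 49.5%, next to chromosome 19, and without the 10 hottest hotspots of every autosome, an alternative chosen after seeing the data, chromosome 19 ranked sixteenth there and remained the lowest in the other 3 PWD hybrids. B6xCAST F1 males had 45.51% against 51.35%, the second lowest. Heat at hotspots without a B6 share is left out of these percentages. Of all heat, symmetric hotspots held 25395 of 52635 on chromosome 19 and 25136 of 64330 on chromosome 9 in rescue F1 males. In Hum/PWD F1 males they held 21478 of 48259 on chromosome 19 and 28482 of 70065 on chromosome 9. By that measure chromosome 19 was not the lowest in rescue F1 and Hum/PWD F1 males.

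By number the difference was smaller. Symmetric hotspots were 452 of 774 with a share, 58.40%, against 57.25% in infertile F1 males (1.15 points, -2.42 to 4.64), and 54.42% against 60.02% in Hum/PWD F1 males (-5.60 points, -9.75 to -1.52), the one cross whose interval leaves out 0 at these limits. In the hotter 0.5 of its hotspots the difference was -4.60 points (-10.2 to 1.03), and with limits of 0.3 and 0.7 the interval also left out 0 in B6xCAST F1 males (-5.00 points, -9.66 to -0.24). At the limits of 0.1 and 0.9 symmetric hotspots were 41.65% against 45.41% in reciprocal F1 (-3.76 points, -8.14 to 0.75), 56.64% against 59.95% in rescue F1 (-3.32 points, -8.00 to 1.26) and 68.43% against 71.29% in B6xCAST F1 males (-2.85 points, -7.42 to 1.40). The infertile F1 difference turned to -2.91 points (-6.83 to 1.00) without hotspots at promoters. As a number, chromosome 19, the shortest autosome, had 202 symmetric hotspots in reciprocal F1, 256 in rescue F1, 314 in Hum/PWD F1 and 297 in B6xCAST F1 males, the fewest of 19, and 452 in infertile F1 males, seventeenth. Per Mb it had 7.358 against 4.836 elsewhere in infertile F1 and 3.288 against 2.77 in reciprocal F1 males, ranks 1 and 4. Rescue F1 males had 4.167 against 3.071 and Hum/PWD F1 males 5.111 against 4.369, ranks 1 and 2. In B6xCAST F1 males it was 4.835 against 4.916, rank 13. Only hotspots with a B6 share can be counted as symmetric. In rescue F1 males these were 452 of 491 on chromosome 19 and 12301 of 14528 elsewhere. The numbers and the values per Mb were not adjusted for this.

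Hotspots with DMC1 signal mostly on 1 homolog were the hotter ones. The median heat of hotspots outside 0.1 to 0.9 was 4.53 times that of symmetric ones on chromosome 19 in infertile F1 males, against 3.21 times elsewhere, and 3.05 against 2.27 times in reciprocal F1 males. It was 1.53 against 1.42 times in rescue F1 and 1.76 against 1.61 times in Hum/PWD F1 males. In B6xCAST F1 males it was 3.49 times on chromosome 19, against 3.61 times elsewhere.

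Which homolog they lay on differed by class. Over all classes, hotspots with a B6 share above 0.9 were 21.71% on chromosome 19 against 21.99% elsewhere in infertile F1, 31.13% against 28.02% in reciprocal F1, 30.31% against 27.04% in rescue F1 and 29.81% against 25.86% in Hum/PWD F1 males. PWD/PWD-only and Hum/Hum-only hotspots lay on the B6 homolog more often on chromosome 19, with an interval that leaves out 0 in each cross but the infertile F1. Among PWD/PWD-only hotspots of chromosome 19, those with a B6 share above 0.9 were 68 of 187, 36.36%, against 27.61% in reciprocal F1 males (interval of the difference 2.10 to 16.0), 41 of 88, 46.59%, against 31.45% in rescue F1 males (4.94 to 25.6), and 49 of 134, 36.57%, against 23.82% in Hum/PWD F1 males (4.98 to 21.3), the highest of 19 in each. In infertile F1 males they were 63 of 287, 21.95% against 18.78% (-1.32 to 8.38). Among Hum/Hum-only hotspots the share above 0.9 was 26.97% against 21.33% in rescue F1 (0.34 to 11.7) and 27.76% against 21.77% in Hum/PWD F1 males (1.00 to 11.6), again the highest. B6/B6-only hotspots leaned to the PWD homolog: 23.35% had a B6 share below 0.1 in infertile F1 males, against 24.89% elsewhere (-7.42 to 5.52). Among hotspots found in neither homozygous map, the share above 0.9 was the lowest of 19 in 3 crosses. It was 27.04% against 38.38% in infertile F1 (interval of the difference -16.2 to -5.97) and 25.96% against 36.71% in rescue F1 males (-18.4 to -1.40). Hum/PWD F1 males had 29.29% against 38.05% (-15.8 to -0.61). In reciprocal F1 males it was 45.95% against 49.91% (-11.9 to 4.22). The share of this class below 0.1 was also lower in infertile F1 males, 25.41% against 31.21% (-10.5 to -0.52). Symmetric ones were more frequent there, 47.56% against 30.42% (11.5 to 22.8). Below 0.1 lay 50.96% against 41.38% in rescue F1 (-0.07 to 19.2) and 49.29% against 40.72% in Hum/PWD F1 males (0.26 to 16.9). Reciprocal F1 males had 48.65% against 45.66% (-5.08 to 11.1).

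Sites with DMC1 signal mostly on the homolog of the other strain were those that were weak in the strain of the allele. The 63 PWD/PWD-only hotspots of chromosome 19 on the B6 homolog in infertile F1 males had a median heat of 150.4 there and of 65.4 at the matching site in PWD/PWD males. The 190 symmetric ones had 21.2 in infertile F1 and 107.3 in PWD/PWD males. The 34 on the PWD homolog had 16.1 in infertile F1 and 130.8 in PWD/PWD males. The other autosomes showed the same order, with 113.4 and 48.2 on the B6 homolog, 22.2 and 97.4 for symmetric and 23.7 and 121.8 on the PWD homolog. For the B6 allele the mirror pattern held: 39 B6/B6-only hotspots on the PWD homolog had a median of 158.4 in infertile F1 and 79.5 in B6/B6 males, where the 107 symmetric ones had 139.7. In the other PWD hybrids the PWD/PWD-only hotspots on the B6 homolog had medians in PWD/PWD males of 64.9 (reciprocal F1), 73.4 (rescue F1) and 69.9 (Hum/PWD F1), and the symmetric ones 159.9, 226.8 and 205.7. Heats of different maps are on their own scales, so the order within each map is what can be read here.

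**Figure D3:**
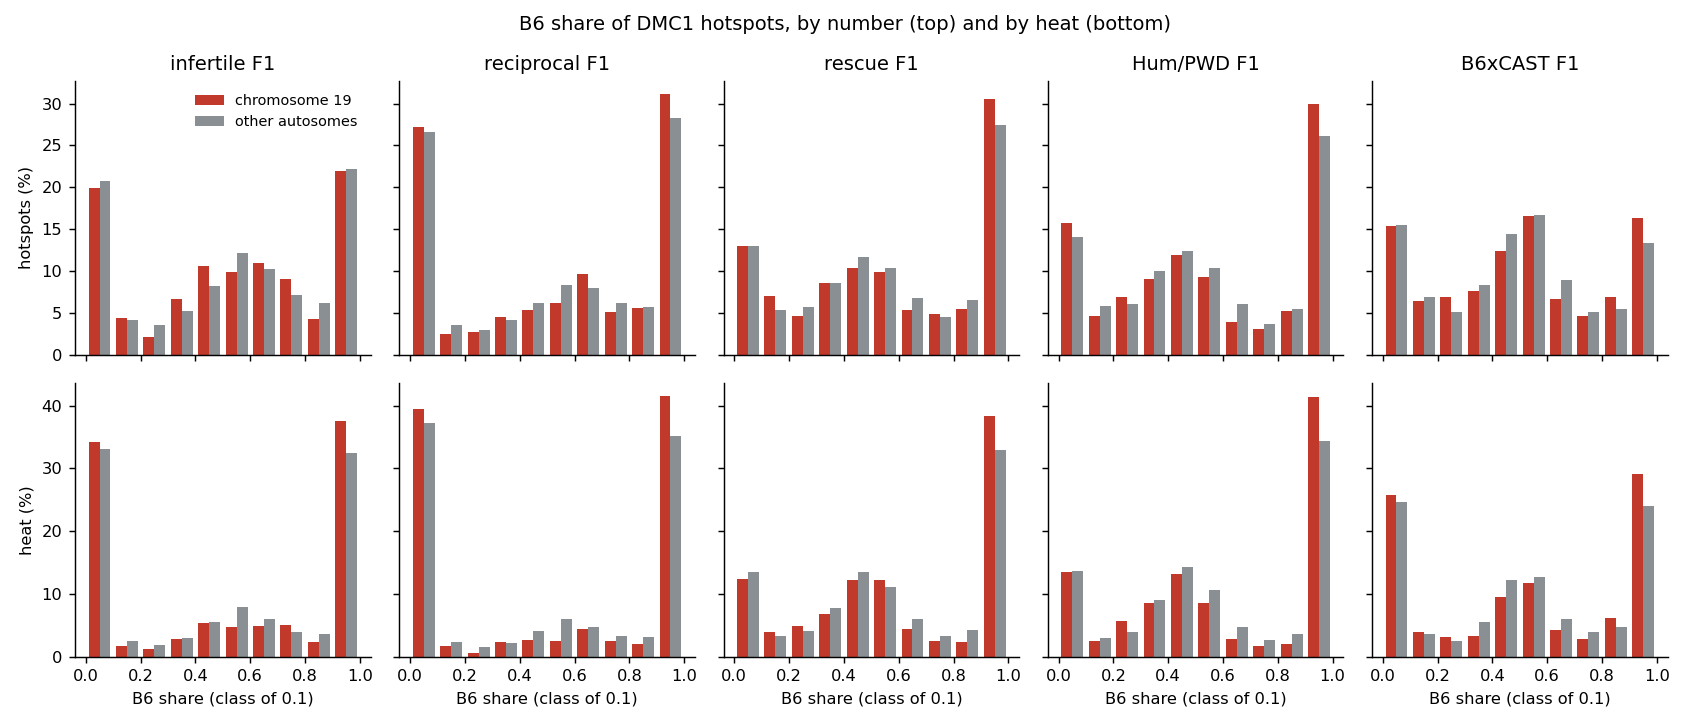
B6 share of hotspots in classes of 0.1, on chromosome 19 (red) and the other autosomes (grey) for the 5 hybrid crosses. Bars are percentages of the hotspots with a B6 share (top) and of their heat (bottom). The class above 0.9 holds 41.4% of this heat on chromosome 19 in Hum/PWD F1 males, against 34.4% elsewhere.

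Most sites called in a pair of crosses had the same class in both. Of 478 chromosome 19 sites with a B6 share in both infertile and reciprocal F1 males, 447, or 93.5%, were in the same class (above 0.9, symmetric or below 0.1) and 0 were in opposite classes, with a median difference of 0.025. For rescue and Hum/PWD F1 males 387 of 433 sites, 89.4%, were in the same class and 0 in opposite ones. Spearman's rho of the B6 share over sites was 0.95 in both pairs. Rescue and infertile F1 males shared 130 such sites, of which 105, or 80.8%, were in the same class and 0 in opposite ones, with a rho of 0.84. The 2 libraries of each pair have the same sequence differences between homologs.

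The hottest single sites illustrate these classes. The hottest autosomal hotspot of the infertile and reciprocal F1 maps lay in an intron of Sorcs1, another VPS10-family receptor gene. Its heat was 845.5 in infertile F1, 1019.6 in reciprocal F1, 496.8 in rescue F1 and 451.4 in Hum/PWD F1 males, against 63.2 in PWD/PWD males, where it ranked 234th on the chromosome. The B6 share was 0.996, 0.994, 0.977 and 0.993 in the 4 hybrids in that order. H3K4me3 at the site had 55 and 81 fragments in the infertile F1 replicates over an input of 8, 40 and 31 over 9 in reciprocal F1 and 48 and 42 over 16 in rescue F1 males. Sites in Ak3, a mitochondrial adenylate kinase gene, and Cemip2, a transmembrane protein gene, behaved alike: the Ak3 site, in an untranslated part of an exon, had 567.3 in infertile F1, 698 in reciprocal F1 and 507.3 in rescue F1 males, against 69.9 in PWD/PWD males, with B6 shares from 0.982 to 0.997.

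Other hot sites of the infertile F1 map had their DMC1 signal on the PWD homolog and matched neither homozygous map. A site in Tmc1, which encodes a channel of inner-ear hair cells, had a heat of 648.6 in infertile F1, 839.6 in reciprocal F1 and 536.4 in B6xCAST F1 males, with B6 shares of 0.002, 0.005 and 0.007. A site in Ablim1, an actin-binding protein gene, had 527.8, 862.2 and 456.9 in the same 3 crosses, with shares of 0.005, 0.005 and 0.006. Both sites thus had their DMC1 signal on the homolog that is not B6, in hybrids with PWD and with CAST. Neither was called in B6/B6 males. The 3 crosses have the B6 allele in common. A site in Prkg1, a cGMP-dependent kinase gene, was hot in infertile F1 (581.1) and reciprocal F1 males (614.5), on the PWD homolog, and had a heat of 12 in B6xCAST F1 males.

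With the Hum allele the leading sites were different. An intron of Gnaq, a G-protein subunit gene, held the hottest chromosome 19 hotspot of rescue F1 (796.5), Hum/PWD F1 (646.2) and B6/Hum males (633.8), and the fourth of Hum/Hum males (460). It was symmetric, at a B6 share of 0.483 in rescue F1 and 0.475 in Hum/PWD F1 males, and H3K4me3 had 119 and 116 fragments over an input of 23 in rescue F1 and 98 and 111 over 11 in Hum/Hum males. The hottest Hum/Hum site, near Add3, an adducin gene, had DMC1 signal mostly on the B6 homolog, with shares of 0.944 in rescue F1 and 0.967 in Hum/PWD F1 males. The hottest symmetric site of infertile and reciprocal F1 males lay in Atl3, an atlastin gene of the endoplasmic reticulum, with heats of 391 and 460.3, and 352.6 in rescue F1, 310.8 in Hum/PWD F1 and 316.2 in PWD/PWD males. It was a PWD/PWD-only site, and its B6 share lay between 0.371 and 0.438 in the 4 hybrids.

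H3K4me3 over all chromosome 19 bins gave different pictures by genotype. The bins lie at the hotspots of each genotype, so the ratios of different genotypes cover different sets of sites. Of the rescue F1 hotspots on chromosome 19, 29.12% had an infertile F1 hotspot within 1000 bp. The ratio of ChIP to input fragments on chromosome 19 over the same ratio on the other autosomes was 1.456 and 1.448 in the infertile F1 replicates, the highest of 19. It was 1.034 and 1.018 in reciprocal F1, 0.901 and 0.901 in rescue F1, 1.109 and 1.105 in the Hum/Hum pseudoreplicates and 0.780 and 0.790 in the B6/B6 ones. Chromosome 19 ranked 8 and 10 of 19 in the reciprocal F1 replicates and 16 in both rescue F1 ones. It ranked 2 in both Hum/Hum and 18 in both B6/B6 pseudoreplicates. The means were 1.45 ± 0.0051 in infertile F1, 1.03 ± 0.011 in reciprocal F1 and 0.901 ± 0.00013 in rescue F1 males (SD, n = 2 each). The replicates of the 3 crosses did not overlap. The exact two-sided permutation test gave p = 0.333 for each of the 3 pairs, adjusted p = 0.333, the smallest value that 2 against 2 replicates can give.

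The infertile F1 ratio was above 1 only with bins that the authors marked as overlapping a peak likely to be PRDM9-independent. These were 204 of 821 bins on chromosome 19, 24.85% against 15.79% elsewhere (difference 9.06 points, 6.18 to 12.2), and held 92.2% and 91.5% of the chromosome 19 ChIP fragments in the replicates, against 82.3% and 81.1% elsewhere. In the other 4 tables they were 6.19 to 9.98% of chromosome 19 bins, with intervals of the difference that include 0. Without marked bins the ratio was 0.794 and 0.801 in infertile F1 and 0.843 and 0.840 in reciprocal F1 males, the lowest of 19 in both. Within marked bins alone it was 1.069 and 1.072 in infertile F1 males, rank 4 of 19 in both replicates. Neither set of bins alone gave the ratio of all bins, and marked bins were a larger share on chromosome 19. With high-input bins kept, none of which lies on chromosome 19, the mean ratio of all bins turned above 1 in rescue F1 (1.36) and B6/B6 males (1.09). Without marked bins it was 0.926 and 0.914 in rescue F1, 1.086 and 1.083 in Hum/Hum and 0.882 and 0.892 in B6/B6 males. The 3 highest bins of infertile F1 males were all marked and in introns within 1000 bp of a transcription start, of Mgea5, Sf1 and Rfk, with enrichments of 53.0, 50.4 and 48.2.

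**Figure D4:**
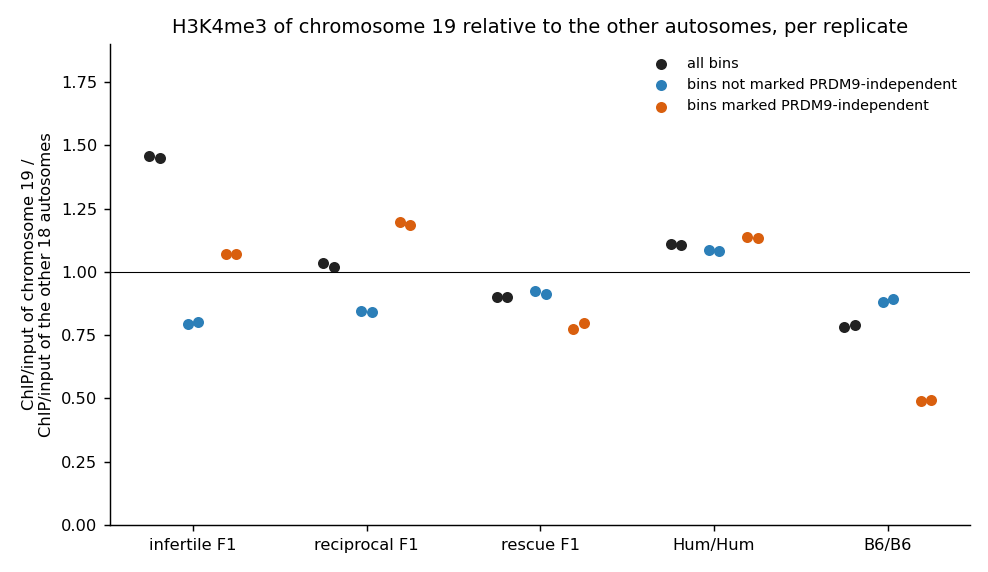
Ratio of ChIP to input fragments on chromosome 19 over that on the other autosomes in the 5 H3K4me3 tables, 1 point per replicate (pseudoreplicate for Hum/Hum and B6/B6), for all bins (black) and for bins not marked (blue) or marked (orange) as PRDM9-independent. In infertile F1 males all bins stand near 1.45 and unmarked bins near 0.80.

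Called bins were a larger share on chromosome 19 in Hum/Hum males and a smaller one in reciprocal F1, infertile F1 and B6/B6 males. A bin was called when the authors' likelihood ratio p-value, Benjamini-Hochberg adjusted over its whole table, was below 0.05. In Hum/Hum males 93.76% of 433 chromosome 19 bins were called, against 89.19% on the other autosomes (4.57 points, 1.85 to 6.56), where 87.7% of the whole table with X passed, and chromosome 19 ranked first. In reciprocal F1 males 33.95% were called, against 44.39% (-10.4 points, -14.4 to -6.28), the lowest of 19, with 43.9% of the table. Infertile F1 males had 79.05% called, against 83.24% (-4.19 points, -7.14 to -1.50), with 82.6% of the table. B6/B6 males had 58.49% against 64.48% (-5.99 points, -10.7 to -1.40), with 63.5% of the table. In rescue F1 males they were 87.78% and 87.86% (-3.31 to 2.59), with 86.9% of the table. The median enrichment of unmarked bins was 1.02 on chromosome 19 against 0.802 elsewhere in Hum/Hum, 0.177 against 0.381 in reciprocal F1 and 0.555 against 0.826 in infertile F1 males.

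The H3K4me3 B6 share followed that of DMC1. With at least 10 informative reads, 41.28% of 235 chromosome 19 bins had an H3K4me3 B6 share from 0.1 to 0.9 in reciprocal F1 males, against 49.41% elsewhere (-8.13 points, -14.3 to -1.66), the lowest of 19. With at least 20 reads the difference was -4.96 points and its interval, -12.5 to 2.95, included 0. They were 65.06% against 62.32% in infertile F1 (2.74 points, -1.37 to 6.65) and 63.73% against 65.99% in rescue F1 males (-2.26 points, -7.33 to 2.54). Over unmarked chromosome 19 bins, Spearman's rho of the DMC1 and H3K4me3 B6 shares was 0.92 in infertile F1 (n = 371), 0.89 in reciprocal F1 (n = 198) and 0.88 in rescue F1 males (n = 324). Heat and H3K4me3 enrichment had a rho between 0.64 in reciprocal F1 and 0.77 in infertile F1 males, within or just below the range of the other autosomes. These are correlations over sites within 1 genotype that share the DNA between homologs.

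Genes of meiosis and germ cells on chromosome 19 were looked at from a list of 15, extended by 2000 bp. A hotspot in at least 1 map lay at 11 of them, 73.3%, against 446 of all 719 protein-coding genes of the chromosome extended in the same way, 62.0%. The median length was 40072 bp in the list and 14592 bp over all 719 genes. Dmrt1, a transcription factor of testis development, had a hotspot in all 9 maps, 20 in total, the hottest of each map at 193.7 in infertile F1, 204.1 in reciprocal F1, 217.5 in rescue F1 and 189.2 in Hum/PWD F1 males, and at 19.9 in PWD/PWD and 95 in B6/B6 males. Gm960, the GENCODE name of Top6bl, whose protein works with SPO11 to make the breaks, had 13 hotspots in 7 maps, with a heat of 446.4 in infertile F1, 511.2 in reciprocal F1, 397.1 in rescue F1 and 363.2 in Hum/PWD F1 males, against 25.7 in PWD/PWD and 50.9 in B6/B6 males. Rad9a, part of a checkpoint clamp, had 354.6 in infertile F1 and 486.3 in reciprocal F1 males. Hells, a chromatin remodeller that acts with PRDM9, had 31.4 in infertile F1 and 24.4 in PWD/PWD males and none elsewhere. Majin, which tethers telomeres to the nuclear envelope, had hotspots in PWD/PWD (91.2) and B6/B6 males (61.5), and none was called in the other 7 maps. No hotspot was called at Fen1, Kat5, Banf1 or Dmrt2.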

How the data were processed

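All values came from deposited tables. The submitters' processing notes name BWA for alignment and, for H3K4me3, SAMtools and bedtools, without versions. Which hotspot caller was used is not given in the sources used here. DMC1 heat is a signal made by the authors, of undefined scale, and the B6 share of DMC1 is a fraction deposited by the authors without the number of informative reads. Per the file headers, H3K4me3 counts are fragments that overlap each 1 kb bin, with 1 column that marks bins likely to be PRDM9-independent. The enrichment, per the file headers, is a ratio to background with a minimum of 0, the p-value comes from a likelihood ratio test, and the B6 fraction and its number of informative reads are estimates by the authors. Lists in the mm9 build and the PWD genomic DNA were not used here.

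Chromosome 19 was compared with the other 18 autosomes map by map. Shares carry Wilson 95% intervals, their differences Newcombe intervals, and the share of hotspots an exact binomial interval. For each replicate ChIP and input fragments were summed, leaving out bins with an input over 10 times the median of the table, and an exact permutation test compared the crosses. H3K4me3 p-values were Benjamini-Hochberg adjusted over each whole table, X included. Genes and transcription starts are from GENCODE M21. Named sites are the 5 hottest of each map, the 3 hottest symmetric and the 3 hottest other hotspots of each hybrid, the 3 highest H3K4me3 bins, sites in the most maps and 15 list genes extended by 2000 bp. The chromosome, the list and the comparisons were chosen with earlier results of these data known. The matching and interval code was tested on simulated maps. The tools were SciPy 1.17.1, pandas 2.3.3, NumPy 2.4.6, Matplotlib 3.10.9 and Python 3.11.15.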

Additional observations from a re-analysis of the deposited data

Results flagged for a closer look

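The H3K4me3 ratio of chromosome 19 to the other autosomes was above 1 in both replicates of infertile and of reciprocal F1 males and below 1 in both replicates of rescue F1 males. Among the 19 autosomes it ranked 8 and 10 in reciprocal F1 and 16 in both rescue F1 replicates, so other autosomes lay further from 1. The mean of infertile F1 minus that of rescue F1 males was 0.551, and reciprocal F1 minus rescue F1 males gave 0.124. The exact permutation test of each pair gave p = 0.333, the smallest value that 2 against 2 replicates can give. Without bins marked as PRDM9-independent all 3 crosses were below 1. The bins of each cross lie at its own hotspots, so the differences compare unlike sets of sites. H3K4me3 at the same sites was not compared between crosses here.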

How the results depend on the processing

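Of 148 alternative values for 52 results, 125 stayed within the interval or SD of the result. Some of these could not do otherwise. Both replicates of a pair always lie within the SD of their mean. The rescue F1 map is itself the shortest map, so its values among the hottest 15019 hotspots repeat the result. The H3K4me3 ratio moved most. Without bins marked as PRDM9-independent it turned below 1 in infertile F1 (0.797) and reciprocal F1 males (0.842), and was 0.920 in rescue F1, 1.085 in Hum/Hum and 0.887 in B6/B6 males. With high-input bins kept, none of which lies on chromosome 19, it was 1.99 in infertile F1, 1.18 in reciprocal F1, 1.36 in rescue F1, 1.60 in Hum/Hum and 1.09 in B6/B6 males, so that rescue F1 and B6/B6 turned above 1. As a ratio of median enrichments it was 0.875, 0.479, 0.986, 1.24 and 0.735 in the same order of genotypes. Leaving out a replicate gave 1.448 to 1.456 in infertile F1, 1.018 to 1.034 in reciprocal F1 and 0.901 to 0.901 in rescue F1 males. Of the calls, the difference was -8.10 points without marked bins in infertile F1 and 8.89 points at an adjusted p below 0.001 in Hum/Hum males. In infertile F1 males the excess of hotspots over length was 0.755 points among the hottest 15019 hotspots and 0.702 points without promoters; the PWD/PWD-only difference was -0.297 points among those hottest hotspots; the class matching neither map differed by 6.74 points without promoters; and the symmetric share differed by -3.12 points in the hotter hotspots and -2.91 points without promoters. Of 127 alternative differences with an interval, 10, in 9 results, changed the side of 0: 5 intervals came to include 0 and 5 came to leave it out, as given beside each result. The causes were not tested.

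No paired analysis was possible because each DMC1 map is 1 library and the H3K4me3 replicates carry no number shared between crosses. Single libraries leave differences between maps without a replicate check, the number of informative DMC1 reads is unknown, and classes below about 20 hotspots give wide intervals.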
